A study of Drosophila melanogaster with 12 samples.

Results

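The genes described here are 9 members of the integrated stress response and the unfolded protein response of Drosophila melanogaster, namely crc, PEK, Gcn2, AsnS, Thor, Nmdmc, Xbp1, Ire1 and Hsc70-3. They were found by FlyBase identifier among the 17158 genes of the deposited table, and all 9 were listed above 0 in every group. The RNA came from wing imaginal discs, larval sacs of epithelium that give rise to the adult wing, dissected from larvae of the third instar. Regenerating discs, damaged by induced apoptosis, and undamaged discs held in the same conditions without induced cell death were taken at 0 h, 15 h and 25 h after induction. The labels name regeneration and control as genotypes without giving the alleles, the driver or the agent of cell death. Each of the 6 groups held 2 libraries made from pools of 40 discs.

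The integrated stress response joins several alarms to the machinery that starts translation. Kinases such as PEK, which senses misfolded protein in the endoplasmic reticulum (ER), and Gcn2, which senses uncharged tRNA, phosphorylate the initiation factor eIF2. Most translation then slows, while the mRNA of crc, the fly ATF4, is translated more, and crc protein activates genes such as AsnS and Thor. In the unfolded protein response proper, Ire1 splices the Xbp1 mRNA, and the Xbp1 transcription factor made from it activates ER chaperone and degradation genes. Control of crc therefore lies largely in translation, that of PEK, Gcn2 and Ire1 in phosphorylation, and that of Xbp1 in splicing. None of these is measured by mRNA levels per gene.

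The authors deposited 1 merged FPKM value (fragments scaled to gene length and library size) per gene and group, so neither a spread between replicates nor a test could be had, and every difference below lacks a check by replicates. A gene counted as higher or lower by the size of its ratio, where log2 of (FPKM + 1) over (FPKM + 1) reached 1 in either direction, provided that 1 or both groups reached 1 FPKM. Log2 ratios below are on this scale, on which the changes of low genes come out too small. FPKM summed to between 1247527 and 1504200 per group and read depth is unknown. Median-of-ratios factors, which bring the typical gene to 1 level in all groups, ran from 0.713 in control discs at 0 h to 1.227 in regenerating discs at 15 h, so the log2 ratio of the median measured gene was 0.47 at 0 h, 0.35 at 15 h and 0.10 at 25 h. Values are therefore given as deposited and, where named so, after this scaling. The control column at 0 h has fewer decimals than the others, and how it was made is unclear, which bears on each ratio that uses it. The wing disc markers vg, sd, nub, ap, bi, ptc and en were above 0 in all 6 groups. In order of time their summed levels were 119, 184 and 201 FPKM in control discs and 156, 239 and 149 FPKM in regenerating discs. Their median log2 ratio was 0.50, 0.27 and -0.43, and at 25 h 1 of 7 lay above the median of all genes. Of these markers only sd passed the rule, as higher at 0 h, and not after scaling.

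AsnS was the only member past the rule at all 3 times, Thor passed it at 15 h and 25 h, and the other 7 members lay within it throughout. At 0 h 1 of 9 members was higher, and of all 8202 genes measured 7.47% were higher and 3.04% lower. At 15 h 2 of 9 were higher, against 5.95% of 8095 genes higher and 2.2% lower. At 25 h 2 of 9 were higher, against 9.11% of 8148 genes higher and 3.19% lower. Much of that share came from low genes. A ratio as high as the 1.02 of AsnS at 25 h was found in 8.87% of all measured genes. Among the 6164 genes of at least 5 FPKM in both groups it was found in 1.27%. No member was lower at any time, although with a rule of 1.5-fold crc was lower at 25 h. The median log2 ratio of the 9 members was 0.65, 0.32 and 0.16 at 0 h, 15 h and 25 h, beside 0.47, 0.35 and 0.10 for all measured genes. From the highest to the lowest member, AsnS and Xbp1 at 0 h, Thor and crc at 15 h and at 25 h, the ratios were spread from 1.53 to 0.30, from 1.26 to -0.34 and from 1.46 to -0.75. After median-of-ratios scaling AsnS alone passed at 0 h, where 2.34% of genes were higher and 5.46% lower. At 15 h 0 of 9 passed, against 1.64% and 4.01% of genes, and at 25 h Thor alone passed, against 8.47% and 3.51%.

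**Figure D1:**
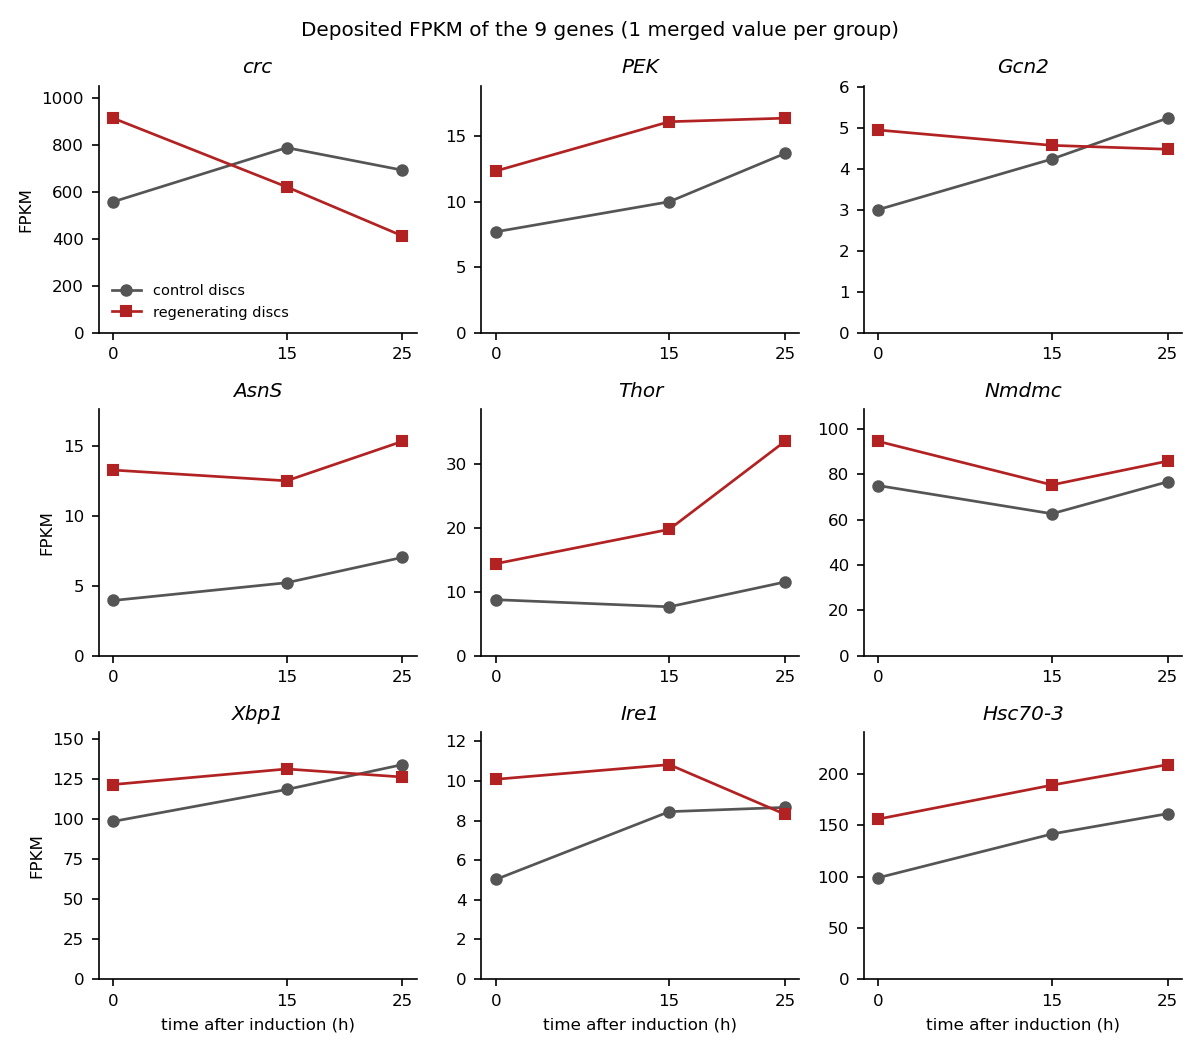
FPKM of the 9 genes (y axes, from 0, with a different range per gene) against time after induction in hours, with grey circles for control and red squares for regenerating discs, each 1 merged value without an error. AsnS and Thor lie above control at each time, while crc starts above control at 913 against 557 FPKM and ends below it at 412 against 692 FPKM.

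The sensor kinases of the integrated stress response were low in level. PEK (FBgn0037327, chromosome 3R, 5458563 to 5464753) measured 7.71, 10.0 and 13.7 FPKM in control discs at 0 h, 15 h and 25 h and at 12.4, 16.1 and 16.4 FPKM in regenerating discs. It was above control at each time, with log2 ratios of 0.62, 0.64 and 0.24, none past the rule, and of 0.13, 0.27 and 0.20 after scaling. Gcn2 (FBgn0019990, chromosome 3R, 31395660 to 31402013) had the lowest level of the 9 genes in all 6 groups, at 3.01, 4.25 and 5.25 FPKM in control discs and 4.96, 4.58 and 4.49 FPKM in regenerating discs. The next lowest was AsnS in each control group and Ire1 in each regenerating group. The log2 ratios of Gcn2, 0.57, 0.09 and -0.19, went from above to below control, and after scaling the ratio at 15 h was also below 0, at -0.23. PNPase, on the other strand, shares 454 exonic bases with Gcn2, 7.91% of the exonic bases of Gcn2. It stood at 6.39 to 9.1 FPKM, above Gcn2 in each group. PEK stood at 2.36 to 2.61 times the FPKM of Gcn2 in the 3 control groups and in regenerating discs at 2.49 times at 0 h, 3.52 times at 15 h and 3.66 times at 25 h.

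The transcription factor gene crc (FBgn0000370, chromosome 2L, 21310866 to 21319527) had by far the highest level of the 9 genes, ranking between 164 and 309 among all genes of a group. In control discs it stood at 557, 787 and 692 FPKM at 0 h, 15 h and 25 h, and in regenerating discs at 913, 621 and 412 FPKM. The highest and the lowest of its 6 values are thus those of regenerating discs at 0 h and 25 h, a 2.22-fold range within regenerating discs, while control discs at 25 h stood at 1.24 times their level at 0 h. After scaling, the log2 ratio of 25 h over 0 h was -1.23 in regenerating and -0.26 in control discs, so the direction in control discs turned. The log2 ratio of regenerating over control was 0.71 at 0 h, -0.34 at 15 h and -0.75 at 25 h. None passed the rule, and after scaling the ratios were 0.17, -0.73 and -0.79, with the same signs. At 25 h 6.21% of measured genes, and 5.56% of the 6164 genes of at least 5 FPKM in both groups, had a ratio as low as that of crc.

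The annotation places CG46314 on the same strand as crc, with 2515 shared exonic bases, 73.5% of the exonic bases of crc, and CG46314 is not analysed here. The value of crc may therefore include fragments of the shared stretch, since the assignment of fragments was not given in the sources used here.

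AsnS (FBgn0270926, chromosome 3L, 21173118 to 21174973) encodes asparagine synthetase, which makes asparagine from aspartate and is a known target of ATF4 in mammals. It stood at 3.96, 5.23 and 7.04 FPKM in control discs at 0 h, 15 h and 25 h and at 13.3, 12.5 and 15.3 FPKM in regenerating discs. Every regenerating value lay above every control value. As deposited, control values were higher at each later time while regenerating discs were already high at 0 h. After scaling the levels were 5.55, 5.59 and 6.62 in control and 12.8, 10.2 and 13.9 in regenerating discs. The control step from 0 h to 15 h was then 0.01 on the log2 scale. The log2 ratios of regenerating over control were 1.53, 1.12 and 1.02, and 1.07, 0.76 and 0.97 after scaling. At 0 h 1.44% of all measured genes had a ratio at least as high. At 25 h this share was 8.87%, but 1.27% among genes of at least 5 FPKM in both groups. With control discs at 15 h in place of those at 0 h, the ratio of regenerating discs at 0 h was 1.20.

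AsnS is a gene of 1 exon that lies inside chb, a microtubule-binding protein gene on the same strand, with 0 exonic bases shared. The levels of chb were 3.82, 6.84 and 7.39 FPKM in control and 6.04, 7.82 and 7.26 FPKM in regenerating discs, with log2 ratios of 0.55, 0.17 and -0.02, so chb did not pass the rule at any time.

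Thor (FBgn0261560, chromosome 2L, 3478434 to 3479612) encodes 4E-BP, which binds the cap-binding factor eIF4E and holds back cap-dependent translation, and is activated in flies by crc and by foxo. Its levels were 8.77, 7.66 and 11.5 FPKM in control discs and 14.4, 19.8 and 33.5 FPKM in regenerating discs at 0 h, 15 h and 25 h. The regenerating value at 25 h was 2.33 times that at 0 h, against 1.31 times in control discs, and all regenerating values lay above all 3 control values. After scaling, the log2 ratio of 25 h over 0 h was 1.08 in regenerating and -0.17 in control discs, where the direction turned. The log2 ratio of regenerating over control was 0.66, 1.26 and 1.46, and 0.16, 0.90 and 1.41 after scaling. At 25 h 5.15% of all measured genes, and 0.438% of those of at least 5 FPKM in both groups, had a ratio as high. Thor has no overlapping gene in the annotation.

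Thor is known to be expressed in fat body, and fat body markers also differed between the groups. Their summed level over 11 genes was 260, 7.66 and 56.6 FPKM in control discs and 408, 149 and 721 FPKM in regenerating discs. At 0 h 5 of 9 measured markers were higher and 0 lower, against 7.47% and 3.04% of all genes, but after scaling 2 were higher and 1 lower. At 15 h and 25 h 7 of 7 measured markers were higher, against 5.95% and 9.11% of all genes. Yp1 and Yp2 were at 0 in every group. Both the marker sum and Thor were lowest in control discs at 15 h, each at 7.66 FPKM, and highest in regenerating discs at 25 h, at 721 and 33.5 FPKM. In between, control discs at 0 h held 260 FPKM of the markers and 8.77 FPKM of Thor, and regenerating discs at 15 h held 149 and 19.8 FPKM. Of 6 muscle precursor markers 2, twi and Him, were higher at 25 h, against 9.11% of all genes. Both also passed after scaling, against 8.47%. The 6 summed to 44.0 to 49.7 FPKM in control and 55.9 to 76.3 FPKM in regenerating discs. Over 8 hemocyte markers the sums were 39.2 to 59.3 and 49.3 to 63.8 FPKM, with He lower at 0 h and higher at 25 h and listed at 0 in regenerating discs at 0 h and control discs at 25 h. He was 1 of 7 measured markers at 0 h and 1 of 6 at 25 h, against 3.04% of all genes lower and 9.11% higher. It was a low gene, at no more than 3.89 FPKM in any group. The part of fat body, muscle precursor or blood cell RNA in the levels of Thor, AsnS and the other members was not tested. In pooled discs a different number of cells of a type and a different amount of RNA per cell cannot be told apart.

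Nmdmc (FBgn0010222, chromosome 3R, 9042508 to 9050555), a mitochondrial enzyme gene of the folate cycle, was at 75.1, 62.7 and 76.7 FPKM in control discs and 94.5, 75.4 and 85.8 FPKM in regenerating discs. It was lowest at 15 h in both series. Its log2 ratios of 0.33, 0.26 and 0.16 were within the rule, and after scaling they were -0.21, -0.12 and 0.11, so no direction is drawn for it. Rel, the immune NF-kappaB gene that overlaps it on the same strand, shares 0 exonic bases with it.

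**Figure D2:**
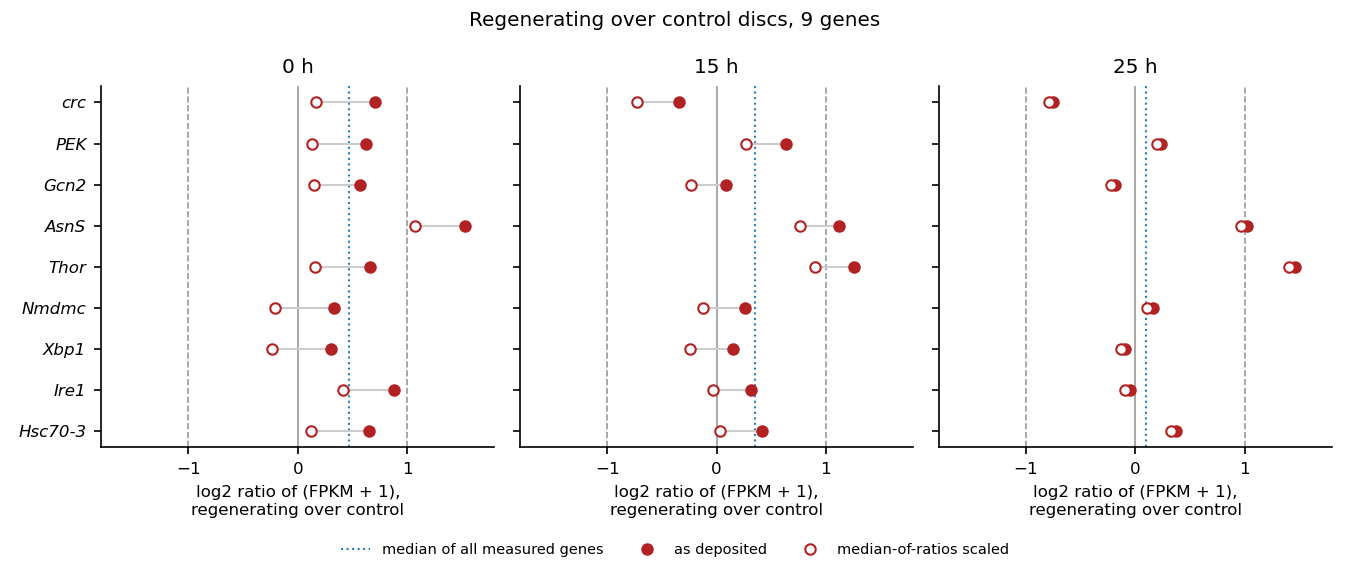
Log2 ratios of (FPKM + 1), regenerating over control discs (x axes), for the 9 genes (rows) at 0 h, 15 h and 25 h, with filled circles as deposited, open circles after median-of-ratios scaling, dashed lines at the rule of -1 and 1, and a blue dotted line at the median of all measured genes. AsnS lies furthest right at 0 h, at 1.53, and Thor at 25 h, at 1.46, while crc lies furthest left at 15 h and 25 h.

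In the ER arm, Ire1 (FBgn0261984, chromosome 3R, 19853908 to 19861291), the sensor kinase and nuclease, stood at 5.03, 8.46 and 8.67 FPKM in control discs and 10.1, 10.8 and 8.33 FPKM in regenerating discs. The groups were furthest apart at 0 h, at a linear fold of 2.0. The log2 ratios were 0.88, 0.32 and -0.05, all within the rule, and 0.41, -0.03 and -0.09 after scaling. With control discs at 15 h as the denominator the ratio at 0 h was 0.23. MICU3, on the other strand, shares 496 exonic bases with Ire1, 12.3% of its exons.

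Xbp1 (FBgn0021872, chromosome 2R, 21143545 to 21145750) varied least, from 98.4 to 133.8 FPKM over the 6 groups, a 1.36-fold range. Control discs stood at 98.4, 118.3 and 133.8 FPKM and regenerating discs at 121.4, 131.1 and 126.1 FPKM. The log2 ratios were 0.30, 0.15 and -0.09, and -0.24, -0.24 and -0.13 after scaling. The spliced and the unspliced mRNA are not separated in a value per gene.

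Hsc70-3 (FBgn0001218, chromosome X, 11801696 to 11807117), the ER chaperone BiP, which binds unfolded proteins, stood at 99.0, 141.7 and 161.5 FPKM in control discs and 156.3, 189.4 and 209.4 FPKM in regenerating discs. It was above control at each time and, as deposited, higher at each later time in both series. After scaling its levels were 139, 152 and 152 in control discs and 150, 154 and 190 in regenerating discs. The rise in control discs from 15 h to 25 h was thus not kept. The log2 ratios of regenerating over control, 0.65, 0.42 and 0.37, were within the rule, and after scaling they were 0.12, 0.03 and 0.33. Within each group, Hsc70-3 stood at 1.01, 1.20 and 1.21 times the level of Xbp1 in control discs and 1.29, 1.45 and 1.66 times in regenerating discs.

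Over time within a series, 0 of 9 members passed the rule in any of the 4 steps. From 0 h to 15 h 5.02% of all measured genes were higher and 2.09% lower in control discs, and 3.26% and 3.68% in regenerating discs. From 15 h to 25 h these shares were 1.01% and 5.3% in control discs and 2.86% and 2.58% in regenerating discs. As deposited, the largest steps among the members were those of Thor and crc in regenerating discs from 15 h to 25 h, with log2 ratios of 0.73 and -0.59, and of Ire1 in control discs from 0 h to 15 h, at 0.65. After scaling the largest were that of Thor, at 0.88, and from 0 h to 15 h those of crc in regenerating discs, at -0.80, and of Nmdmc in control discs, at -0.64, while that of Ire1 was 0.32. Across both steps in regenerating discs crc changed by -1.15 and Thor by 1.16 on the log2 scale, a span set after the values were seen. After scaling these were -1.23 and 1.08. Of the 9 members, 6 had their lowest value in control discs at 0 h, and 3 after scaling. That group also had the lowest median-of-ratios factor, at 0.713. The share of all genes with their lowest value there was not computed, so the count is not read as a trait of the members.

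A ratio of 2 genes within a group does not depend on the scaling of the groups. Per 100 FPKM of crc, AsnS stood at 0.711, 0.664 and 1.02 FPKM in control discs at 0 h, 15 h and 25 h and at 1.46, 2.02 and 3.72 FPKM in regenerating discs. The ratio of AsnS to crc was thus 2.05-, 3.04- and 3.66-fold higher in regenerating discs. Thor per 100 FPKM of crc was 1.58, 0.973 and 1.67 FPKM in control discs and 1.58, 3.18 and 8.13 FPKM in regenerating discs, the same at 0 h, then 3.27-fold and 4.88-fold higher. A higher ratio to crc at the later times was not particular to AsnS and Thor. In order of time, Hsc70-3 per crc in regenerating discs was 0.963, 1.7 and 2.18 times that in control discs. For Nmdmc per crc these values were 0.768, 1.53 and 1.88. The level of crc was itself below control at 15 h and 25 h. Thor and AsnS also differed from each other, since Thor stood at 2.21 times AsnS in control and 1.08 times in regenerating discs at 0 h, and at 1.64 and 2.18 times at 25 h. These ratios show unequal change of the genes in a pair and not which of them changed.

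**Figure D3:**
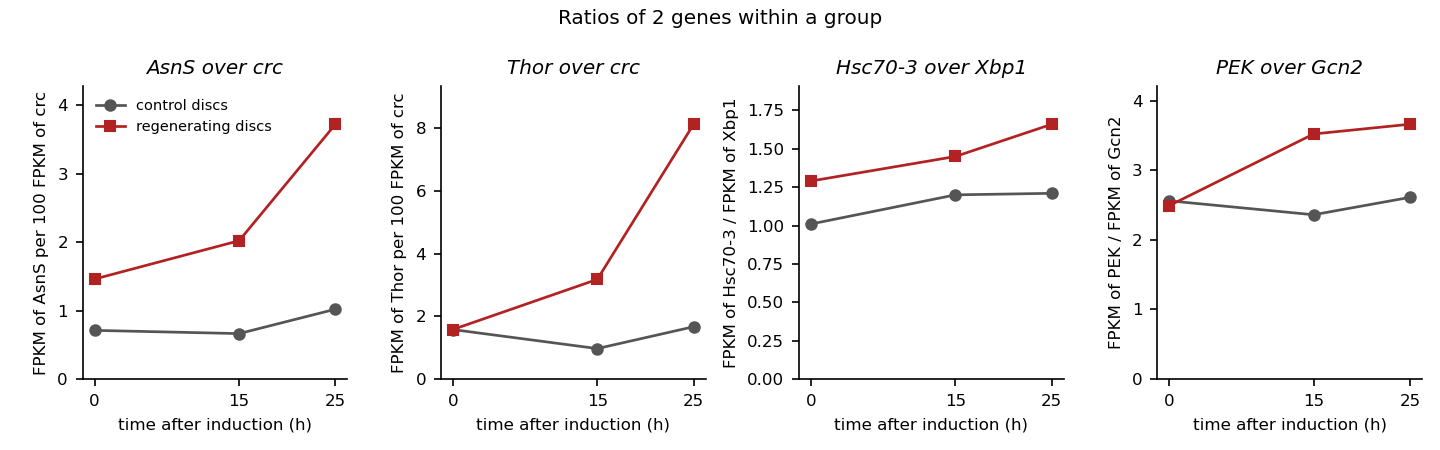
FPKM of AsnS and of Thor per 100 FPKM of crc, and the ratios of Hsc70-3 to Xbp1 and of PEK to Gcn2 (y axes, from 0), against time after induction in hours, in control (grey circles) and regenerating discs (red squares), without errors. The lines for AsnS and Thor part with time and reach 3.72 and 8.13 in regenerating discs at 25 h.

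By the profile over the 6 groups, after centring each group on its median and each gene on its mean, the nearest of 5516 genes of at least 5 FPKM throughout were listed for 3 members. For crc these were Oda, the antizyme of ornithine decarboxylase, at a root-mean-square log2 distance of 0.0581, trsn, the translin gene, at 0.0666, and rost at 0.0895. Oda stood at 497, 701 and 608 FPKM in control and 811, 514 and 392 FPKM in regenerating discs, so that regenerating discs held its highest value at 0 h and its lowest at 25 h. For Thor the nearest were RpL4, a ribosomal protein gene, at 0.178, Mgstl, a microsomal glutathione transferase gene, at 0.188, and Cpr64Aa, a cuticle protein gene, at 0.20. RpL4 stood at 1380, 1100 and 1610 FPKM in control and 1950, 2300 and 3320 FPKM in regenerating discs. For Xbp1 they were APC10, a subunit gene of the anaphase-promoting complex, at 0.0251, CG3402 at 0.0357 and REG, a proteasome activator gene, at 0.0432. With 6 values per gene, close profiles are easily found among so many genes.

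Over 9 lists of the wider pathways, at 0 h 5 of 111 measured members (4.5%) passed as higher and 0 as lower, where 7.47% of all genes measured were higher and 3.04% lower. At 15 h 2 of 112 (1.79%) were higher and 1 lower, against 5.95% and 2.2% of all genes, and at 25 h 1 of 112 (0.893%) was higher and 3 lower (2.68%), against 9.11% and 3.19%. Among genes of at least 5 FPKM in both groups, 1.27% had a ratio at 25 h as high as 1.02. The low count of higher genes at 25 h is therefore not read as a trait of the lists. Below, list medians are given in order of time as log2 differences from that of all measured genes. Of 15 measured genes of the eIF2 and eIF2B factors, the eIF2 phosphatase and reinitiation, 0, 1 and 0 were higher and 0 lower. Their medians were -0.16, 0.27 and 0.13. The 1 gene was eIF2Bdelta, a subunit of the exchange factor that phosphorylated eIF2 blocks, which at 15 h held 24.4 FPKM in control discs against 55.7 FPKM in regenerating ones. It did not pass after scaling, at 0.77.

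Of 19 cytosolic aminoacyl-tRNA synthetase genes, whose enzymes charge tRNAs, 1 was higher at 0 h, 1 at 15 h and 0 at 25 h, and 0 lower. ArgRS held 25.5 FPKM in control discs and 57.5 FPKM in regenerating ones at 0 h, and 68.1 and 36.5 FPKM at 25 h, and CysRS at 15.7 and 35.6 FPKM at 15 h. Neither passed after scaling. The list lay above the median of all genes for 8 of 19 members at 0 h, 19 of 19 at 15 h and 17 of 19 at 25 h, with medians of -0.11, 0.32 and 0.23.

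Among 11 measured genes of amino acid supply and others linked to crc at 0 h, and 12 at the later times, the amino acid transporter gene mnd was higher at 0 h at 7.42 and 16.1 FPKM, though not after scaling. At 25 h the genes scyl and chrb, inhibitors of TOR signalling, were lower as deposited and after scaling. In control and regenerating discs scyl stood at 86.6 and 29.0 FPKM and chrb at 20.2 and 5.62 FPKM. The transporter gene slif passed at 25 h with 1.17 FPKM in regenerating discs and a listing at 0 in control discs. The list medians were -0.29, 0.05 and 0.09.

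Of 8 other transducers of the unfolded protein response, Atf6 was the only gene past the rule, lower at 15 h and 25 h. Atf6 encodes a membrane-bound transcription factor released under ER stress. It stood at 46.0, 103 and 62.5 FPKM in control and 32.3, 43.2 and 27.1 FPKM in regenerating discs, with log2 ratios of -0.50, -1.24 and -1.18, and -1.03, -1.62 and -1.22 after scaling. S1P, a protease gene whose product cuts ATF6 in mammals, stood at 8.12 and 3.98 FPKM at 25 h, within the rule. The medians were 0.16, -0.27 and -0.40.

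Of 18 ER chaperone, folding and translocon genes only Manf passed the rule, at 0 h. This gene of a secreted ER stress protein held 278 FPKM in control discs against 584 FPKM in regenerating ones, and did not pass after scaling. At 25 h it stood at 434 and 318 FPKM. Gp93, the ER form of Hsp90, stood at 143 and 250 FPKM at 15 h, within the rule. The list medians were 0.06, 0.17 and -0.03.

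Of 11 measured ER-associated degradation genes 0 were higher and 0 lower at any time, with medians of 0.16, 0.33 and -0.14. The nearest to the rule was Der-1, whose product helps move proteins out of the ER, at 79.8 and 158 FPKM at 0 h. Neither did any of 6 measured folate cycle and serine-glycine genes pass, with medians of -0.41, -0.46 and 0.15. In that list Shmt, which moves a carbon unit from serine to folate, stood at 88.2 and 146 FPKM at 15 h.

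Of 8 mitochondrial chaperone and protease genes ClpP was higher at 0 h, at 36.2 and 98.6 FPKM, and did not pass after scaling. The medians were 0.10, 0.25 and -0.04. Of 19 TOR and cap-dependent translation genes Rheb, the activator of TOR, was higher at 0 h at 33.3 and 74.4 FPKM, again not after scaling, with medians of 0.11, 0.14 and -0.04.

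**Figure D4:**
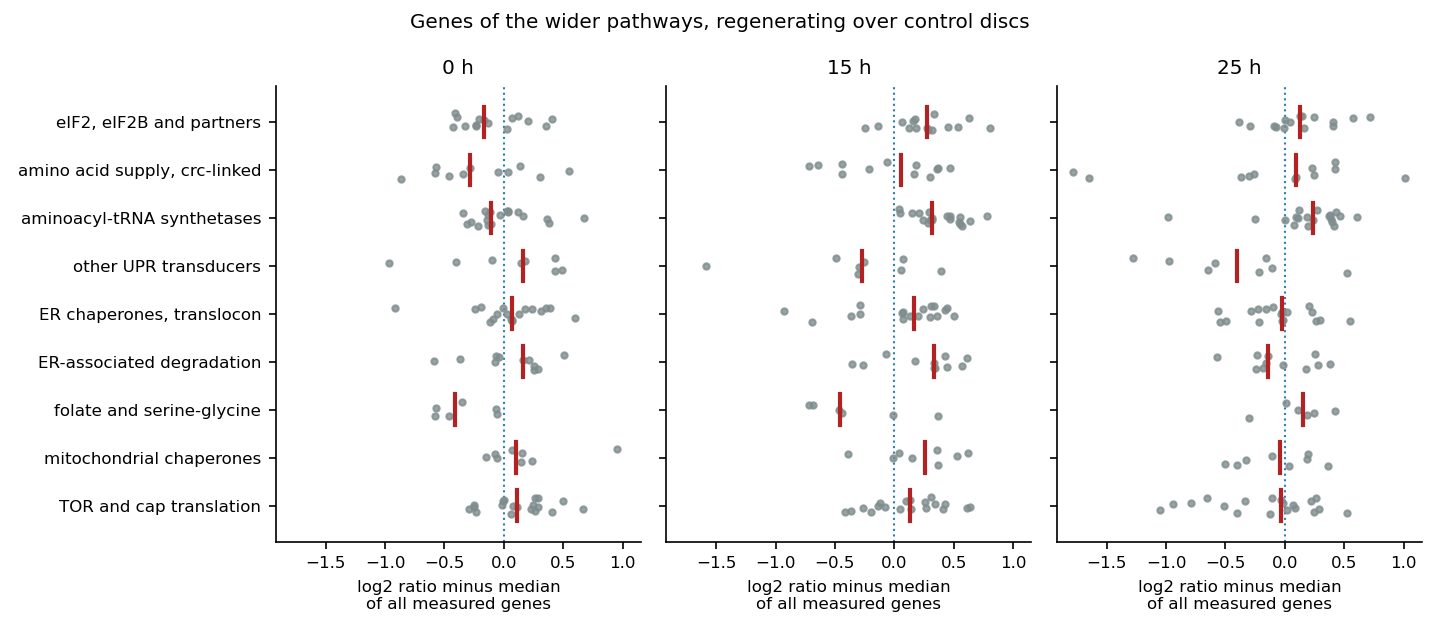
Log2 ratio of (FPKM + 1), regenerating over control discs, minus the median of all measured genes (x axes), at 0 h, 15 h and 25 h, with 1 point per measured gene of 9 lists (rows; UPR is the unfolded protein response) and a red bar at each list's median. Most points lie within 1 of the blue dotted line at 0, with Atf6 far to the left at 15 h and scyl and chrb at 25 h.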

How the data were processed

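Per the labels, 12 libraries of poly(A) RNA were made with Illumina TruSeq chemistry and sequenced. The authors deposited FPKM values merged over replicates, 1 column per group. STAR 2.4.0j, RSEM and dm6 are named, without their roles, per the submitters' processing notes, and the way of merging was not given in the sources used here. Groups came from the sample titles. 1 further column of values was not used.

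In 5 columns, whole numbers of at least 1000 ending in 5 had lost a decimal point and were divided by 1000. This reading rests on the values. It touched 20 of the 54 values of the 9 genes. Afterwards the highest value of a gene was at most 4.37 times its lowest, while undivided it would be at least 1300 times. 1 value of another gene, Act5C, had 2 plausible readings and was left out.

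Ratios, median-of-ratios factors and the rule of size were computed over the whole table with pandas 2.3.3 and numpy 2.4.6 and tested on simulated data. Symbols were paired with 16912 identifiers, and 246 had none. Coordinates are from Ensembl release 115, assembly BDGP6.54, the same as dm6. Listed genes that matched no identifier of the table, such as Pdi and InR, are not analysed here. Named genes are the 9 members and, from each list, those past the rule and others among the 4 of largest change, and the 3 nearest profiles of crc, Thor and Xbp1. The members and lists were chosen with earlier results of these data known. Alternatives were other pseudocounts, filters, scalings and fold limits. Sequence features of promoters and proteins, planned as descriptions, were not analysed here.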

Additional observations from a re-analysis of the deposited data

Results flagged for a closer look

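The ratio of crc in regenerating over control discs stood on opposite sides of 0 at different times, with log2 values of 0.71, -0.34 and -0.75 in order of time. The ratio at 15 h minus that at 0 h was -1.05, and at 25 h minus that at 0 h it was -1.46, or -0.97 after median-of-ratios scaling. As deposited, the median of the second difference over all measured genes was -0.36. After scaling, the median ratios of all measured genes were -0.01 at 0 h and 0.06 at 25 h. With 1 merged value per group this difference was not tested. No group has 4 or more values, so no search for outlying libraries was possible.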

How the results depend on the processing

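The direction of AsnS, Thor and crc was kept under every alternative at each time. Over these, the log2 ratios of regenerating over control ran from 1.03 to 1.72, 0.76 to 1.24 and 0.76 to 1.11 for AsnS at 0 h, 15 h and 25 h, from 0.16 to 0.83, 0.90 to 1.36 and 1.22 to 1.53 for Thor, and from 0.17 to 0.84, -0.73 to -0.21 and -0.81 to -0.74 for crc. The number of members past the rule at 0 h, 1 as reported, was 6 with a 1.5-fold rule and 0 with a 4-fold rule. The lowest of these 6 was PEK, and 32.1% of all measured genes had a ratio at 0 h at least as high. The share of all genes past a 1.5-fold rule was not computed, so the counts by that rule are not read as a trait of the members. At 15 h, 2 as reported, it was 0 with a pseudocount of 5, with median-of-ratios scaling and with a 4-fold rule. At 25 h, 2 as reported, it was 1 with a pseudocount of 5, with median-of-ratios scaling and with columns scaled to the same sum, Thor each time, and 0 with a 4-fold rule. A 1.5-fold rule gave 3 at 15 h, with PEK added, and 3 at 25 h, with crc added as lower. Of all measured genes 25.2% had a ratio at least as high as PEK at 15 h, and 6.21% one as low as crc at 25 h. For the steps in time, 0 as reported, a 1.5-fold rule gave 1 in control discs from 0 h to 15 h and 2 in regenerating discs from 15 h to 25 h. The first was Ire1, with 20.0% of all measured genes at least as high. The others were Thor, with 3.89% at least as high, and crc, with 11.0% at least as low. Median-of-ratios scaling and scaling to the same sum together turned the sign of 18 ratios within the rule. They belonged to PEK, Gcn2, Nmdmc, Xbp1, Ire1, Hsc70-3 and AsnS. The last 2 genes turned only with columns scaled to the same sum, in regenerating discs. AsnS turned to 0.05 from 0 h to 15 h, and Hsc70-3 to -0.01 from 15 h to 25 h. Control discs at 15 h in place of those at 0 h, an alternative chosen after seeing the data, left AsnS as the only member past the rule at 0 h. No paired analysis was possible because the table holds 1 merged column per group, and for the same reason no replicate could be left out. Read depth is unknown, so the precision of low genes such as Gcn2 cannot be given.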
